A study of Mus musculus with 145 samples.

Results

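The collagen genes were taken as every gene whose symbol in the single-cell count table has the form Col, a number, the letter a and a number, which gave 44 of 24615 genes. The rule uses the symbol and no measured value. The cells came from a time course in which mouse spermatogonial stem cells (SSCs), the stem cells of the male germline, were reprogrammed toward germline-derived pluripotent stem cells (gPSCs). The SSC lines came from 5.5 dpp males of *Oct4*-EGFP mice on a B6D2F1 background (a C57BL/6 female crossed with a DBA/2 male), so the reporter and the hybrid background were carried by all the reprogramming cells, and the cultures were kept on mitomycin-C-inactivated mouse embryonic fibroblast (MEF) feeders with fibronectin. The original condition, with no added compounds, gave 46 libraries and 4339 cells between day 0 and day 27. Of the pluripotent lines there was 1 library each of gPSC-1 at passage 1 (48 cells), gPSC-1 at passage 15 (32 cells) and mouse embryonic stem cells (mESC, 45 cells), all grown on feeders in N2B27 with 2i and LIF. A separate set of cells, in which RNA was read beside the methylome (scTrio-seq2), compared 5C, a mix of SGC707, vitamin C, EGCG, Daphnetin and TUDCA (8 samples, 724 cells), with the solvent DMSO (5 samples, 365 cells). Cells were mouth-pipetted from colonies of SSC-like or PSC-like shape, so how many cells of a type were found depends on that choice.

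Collagens are built from alpha chains wound into a triple helix, and each chain has its own gene. Fibrillar collagens form the cables of connective tissue and are a main product of fibroblasts, type IV collagen builds the sheet-like network of basement membranes, on which spermatogonia rest in the testis, and FACIT collagens attach to the surface of fibrils. The remaining types include the beaded filaments of type VI, the short-chain types VIII and X, membrane-spanning types such as XIII and XXV, and types XV and XVIII of the basement membrane zone.

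By class, 11 members were fibrillar, 6 were type IV genes of the basement membrane, 9 were FACITs and 18 were others. In sums of at least 5 cells, each pooling the cells of 1 class in 1 library, they gave 361842 unique molecular identifiers (UMIs, each standing for 1 captured molecule) together, of which 148828 came from fibrillar genes, 29804 from type IV genes, 27162 from FACIT genes and 156048 from the others. Levels are counts per 1000000 UMIs (CPM) of such a sum. A UMI marks 1 end of a molecule, so levels were not divided by gene length. They are compared within a gene, as shares within a trimer, or as sums and shares over collagen classes. The shares also depend on capture, which can differ between genes. A mean of at least 10 CPM in any class was reached by 28 members, namely 10 fibrillar, 3 type IV, 4 FACIT and 11 other genes. The remaining 16 stayed between 0.416 and 8.86 CPM in the class where each was highest. Col19a1 alone failed the filter on low counts in the tests between classes, which kept 43 members and 20034 genes.

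Cell classes follow the clusters deposited by the authors, with SSC1 to SSC4 joined as SSC1-4, the reference of most comparisons (36 sums, 2248 cells). The others were Fibroblast 1 (4 sums, 177 cells), Fibroblast 2 (3 sums, 34 cells), the reprogramming clusters RPG1 (7 sums, 321 cells), RPG2 (3 sums, 44 cells), RPG3 (8 sums, 261 cells) and RPG4 (2 sums, 21 cells), early-pluripotent (3 sums, 179 cells), meiotic (6 sums, 494 cells) and neural (12 sums, 434 cells). Libraries held between 15975410 and 34609591 UMIs, and 0 of 4464 cell names were shared. The clusters were built from the expression of these same cells, so a difference between classes describes the clusters and is not independent of them. The study used Col12a1, Col5a2 and Ccn2 as fibroblast genes to name clusters. High Col12a1 and Col5a2 in the fibroblast clusters, and their p-values, are therefore no separate evidence for that name. The labels name libraries and not separate cultures or animals, so p-values measure the spread between libraries. A deposited batch label sets each library to B1 or B2. All sums of Fibroblast 1, Fibroblast 2 and RPG4 were B1, and all sums of RPG2 and early-pluripotent cells were B2. SSC1-4 held both, with most sums in B1. In the comparisons of these classes, class and batch cannot be fully told apart. Fewer cells with a transcript and less of it per cell cannot be told apart in a sum.

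The data go against the name of Fibroblast 1 in that its cells carried germ cell transcripts throughout. Dazl and Ddx4, RNA-binding and helicase genes of the germline, were found in 182 and 182 of 182 cells, at medians of 233 and 142 UMIs. The 8 germ cell markers summed to 2053 to 2324 CPM there, within the 1696 to 3674 CPM of the SSC clusters. The 12 fibroblast markers, none of them a collagen, summed to 123 to 209 CPM in Fibroblast 1, to 1323 to 3954 CPM in Fibroblast 2 and to 9.94 to 133 CPM in the SSC clusters. In Fibroblast 2, Dazl was found in all 39 cells, at a median of 26 UMIs, and Ddx4 in 36, at a median of 5. In sums Dazl was at 114 to 467 CPM in Fibroblast 2, at 49.6 and 59.6 CPM in gPSCs and at 48.1 CPM in mESC.

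The sequence before the start site is shown for 3 members on which the comparisons turn, from RefSeq windows of 250 bases on GRCm38.p6 (mm10), 5′ to 3′ on the strand of the gene. Capitals mark matches to the TATA box (TATAAA), the CCAAT box (CCAAT) or the GC box (GGGCGG), each searched on both strands. Col3a1 (chr1:45311288-45311537, plus strand) and Col13a1 (chr10:61979109-61979358, minus strand) hold 1 TATAAA match each, and Col18a1 (chr10:77166531-77166780, minus strand) holds 1 match to CCAAT and 3 to GGGCGG, in a window that overlaps an exon of another Col18a1 transcript. Its second window (chr10:77113706-77113955), not printed, holds no match to any of the 3.
Col3a1: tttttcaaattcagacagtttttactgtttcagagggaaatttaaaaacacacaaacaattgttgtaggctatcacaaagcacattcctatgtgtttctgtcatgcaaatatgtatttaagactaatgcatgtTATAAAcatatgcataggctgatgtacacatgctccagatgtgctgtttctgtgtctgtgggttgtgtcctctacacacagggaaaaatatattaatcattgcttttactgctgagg
Col13a1: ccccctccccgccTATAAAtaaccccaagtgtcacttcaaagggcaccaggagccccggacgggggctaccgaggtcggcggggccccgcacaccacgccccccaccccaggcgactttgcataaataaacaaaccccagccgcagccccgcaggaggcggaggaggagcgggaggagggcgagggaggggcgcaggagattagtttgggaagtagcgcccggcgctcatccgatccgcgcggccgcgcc
Col18a1: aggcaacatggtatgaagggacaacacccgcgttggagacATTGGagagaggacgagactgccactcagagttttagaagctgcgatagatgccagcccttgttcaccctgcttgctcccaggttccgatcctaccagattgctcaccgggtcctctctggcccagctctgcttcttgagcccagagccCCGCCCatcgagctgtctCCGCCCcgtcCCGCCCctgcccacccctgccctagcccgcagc
Windows were found for 35 of the 44 members (38 windows, since some genes have several start sites). TATAAA was present in 5 of the 38, against 12.4% of all 32851 windows, CCAAT in 13 against 33.8%, and GGGCGG in 22 against 32.7%. A match describes these letters and is not a mapped site. Col4a1 (chr8:11198423-11312826, minus strand) and Col4a2 (chr8:11312805-11449287, plus strand) stand head to head, and the 22 bases their first exons share (chr8:11312805-11312826) are shown on the plus strand, with a match to GGGCGG in capitals, since both genes are read as a pair throughout.
Col4a1 and Col4a2 overlap: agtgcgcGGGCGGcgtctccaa
Col4a5 and Col4a6 are arranged in the same way on chromosome X, with start sites 1343 bases apart. Whether the counting used strand is not given in the sources used here, and without it reads inside an overlap cannot be told apart. This holds also, among others, for the exons that Col5a1 shares with 2810430I11Rik and Gm13372, Col9a3 with Tcfl5, Col4a2 with Gm15419, Col15a1 with Gm12426 and Col4a3 with C430014B12Rik, all on the opposite strand. Col3a1 overlaps Gm47302 on its own strand.

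In the summed level of all 44 members Fibroblast 2 was far above the other classes. Its 3 sums held 2959, 6935 and 8464 CPM (mean 6120 ± 2842, SD, n = 3), whereas the 36 SSC1-4 sums ran from 119 to 339 CPM (215 ± 45.0). Fibroblast 1 lay between, at 427 to 692 CPM (509.6 ± 123, n = 4), and overlapped neither. The 39 cells of the Fibroblast 2 cluster were 0.874% of cells and held 0.733% of all UMIs but 13.7% of the collagen UMIs of all 4464 cells, those outside these sums included. Neural 3, a cluster of 61 cells, held a further 8.83%, and its 2 sums reached 2416 and 2462 CPM. The summed level was 242 ± 37.9 CPM in RPG1 (n = 7), 166 ± 26.1 in RPG2 (n = 3), 193 ± 42.6 in RPG3 (n = 8), 139.7 and 146 in the 2 sums of RPG4, 219 ± 46.5 in early-pluripotent cells (n = 3) and 267 ± 85.0 in meiotic cells (n = 6).

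**Figure D1:**
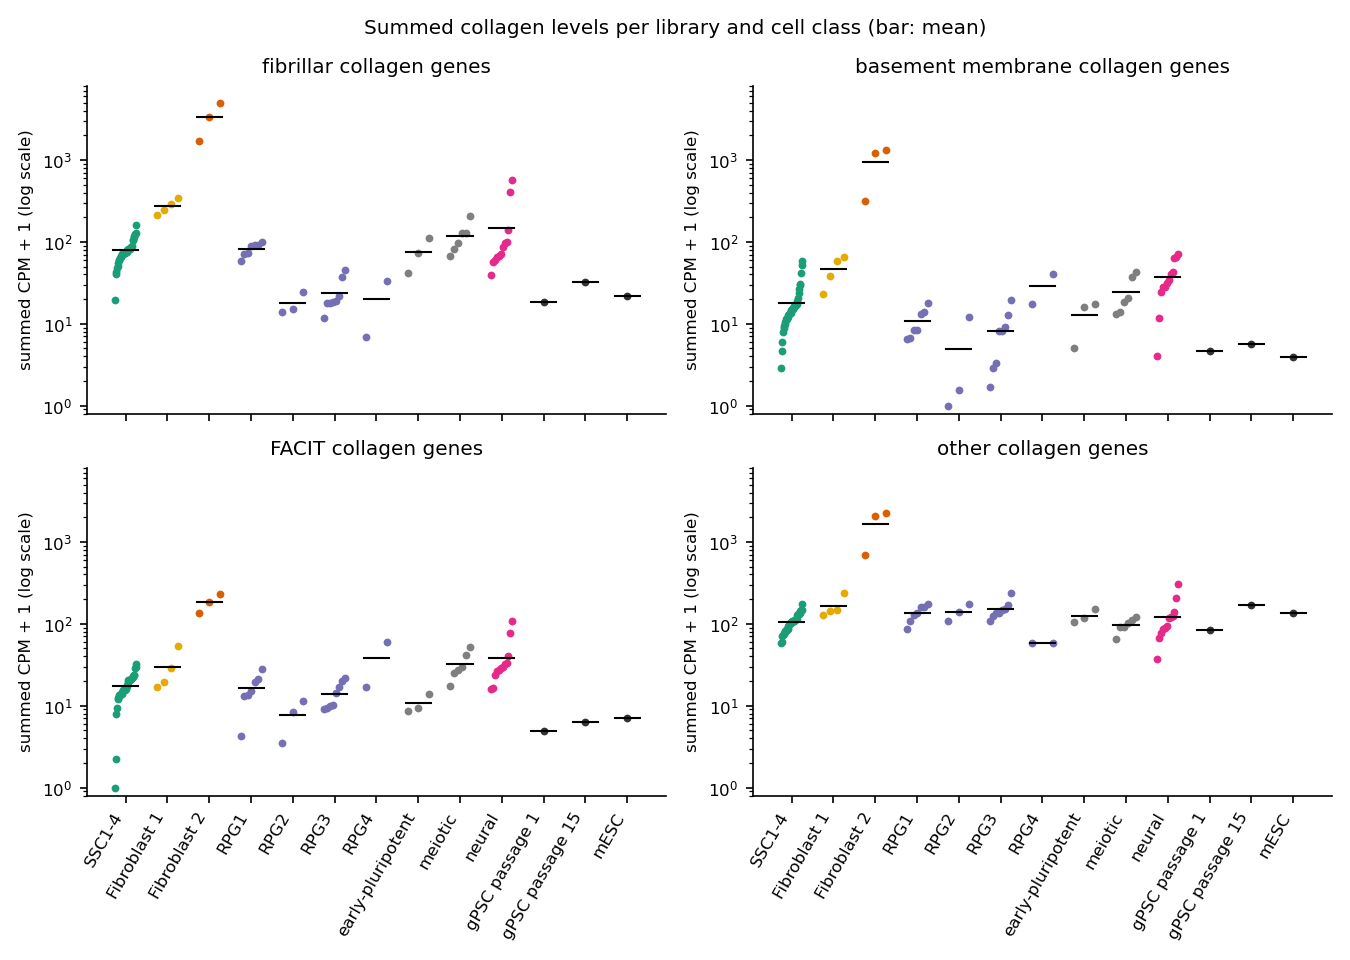
Summed level of the fibrillar, basement membrane, FACIT and other collagen genes in each library sum, as CPM + 1 on a log axis, by cell class; points are sums, bars are means, and each line at the right is 1 library. The 3 Fibroblast 2 sums reach 1724, 3354 and 4926 CPM of fibrillar genes, against 18.4 to 161 CPM in SSC1-4 and 10.9 to 44.4 CPM in RPG3.

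The makeup of the collagen transcripts differed as well, as shares of the summed level that were not tested. Fibrillar genes gave 36.2% of the level in SSC1-4, 53.6% in Fibroblast 1 and 54.5% in Fibroblast 2, but 10.1% in RPG2, 11.8% in RPG3, 13.4% in RPG4, 15.9% and 15.1% in gPSCs of passage 1 and passage 15 and 12.6% in mESC. The other collagens gave 48.5% in SSC1-4 and 40.5% in RPG4, where FACIT genes gave 26.4% and type IV genes 19.7%, but 83.5% in RPG2, 77.7% in RPG3, 77.2% and 80.1% in the gPSC libraries and 82.0% in mESC. The 2 RPG4 sums differed, with FACIT genes at 59.6 and 15.7 CPM, type IV genes at 16.6 and 39.7 CPM and fibrillar genes at 5.92 and 32.3 CPM. Col18a1, whose protein is cleaved to release endostatin, was the main gene among the other collagens in RPG2, RPG3, gPSCs and mESC.

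**Figure D2:**
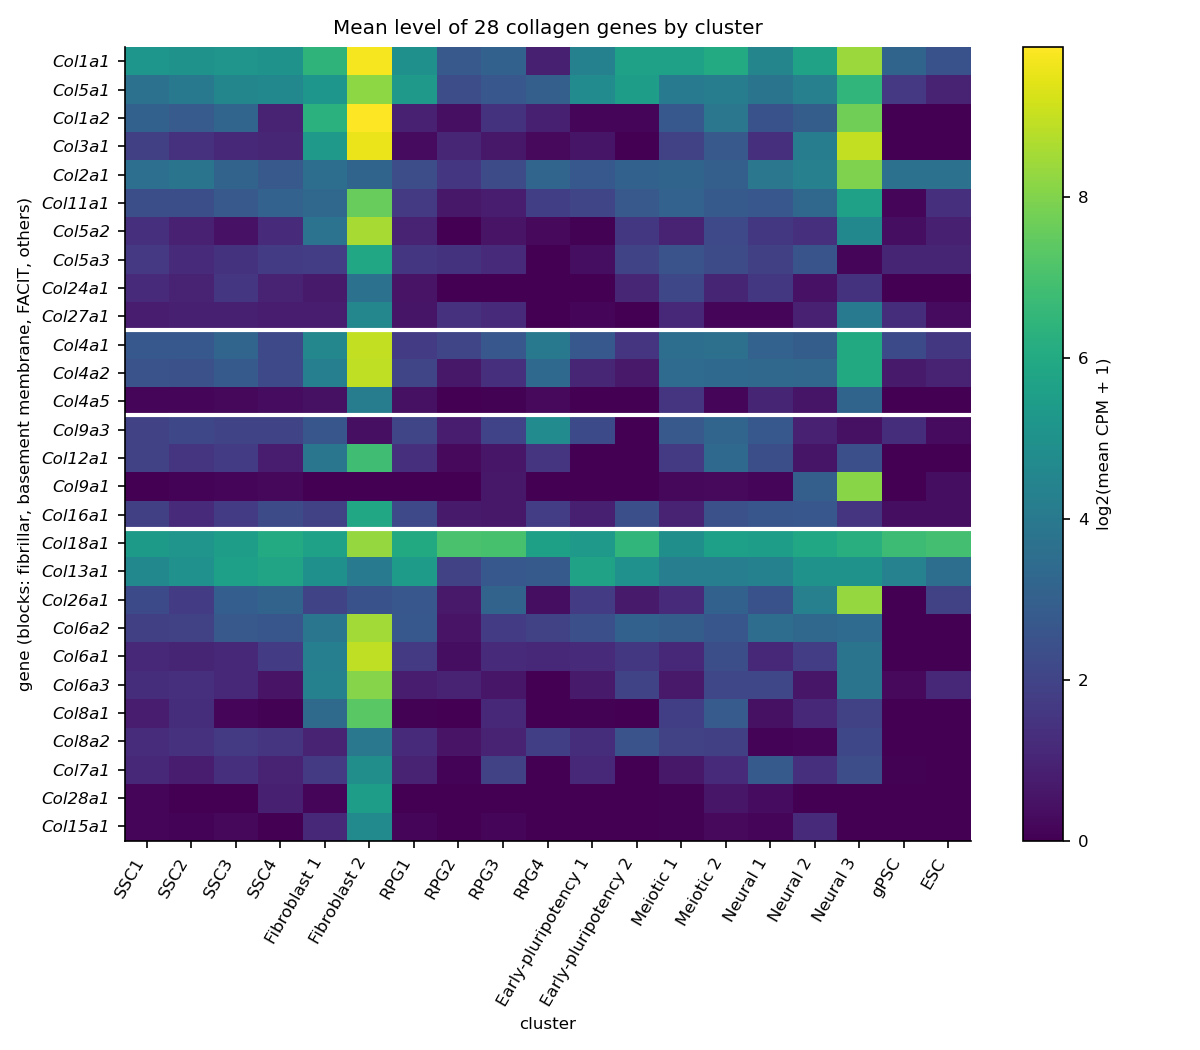
Mean level of the 28 members that reached 10 CPM in some class, as log2(mean CPM + 1), by cluster, with white lines between fibrillar, basement membrane, FACIT and other genes. The fibrillar genes are brightest in Fibroblast 2 and Neural 3, Col9a1 in Neural 3 (mean 275 CPM), and Col18a1 is bright in RPG2 (mean 131 CPM) and RPG3 (127 CPM) where most fibrillar genes are dark.

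Fibroblast 2 against SSC1-4 asked which collagens mark the few cells with a mesenchymal profile. Of 43 members tested, 29 rose and 1 fell by edgeR's quasi-likelihood test across all genes (Benjamini-Hochberg adjusted p under 0.05 and a log2 difference of at least 0.72), where 33% of 20034 genes were called, 19.4% as higher and 13.6% as lower. By class, 10 of 11 fibrillar, 5 of 6 basement membrane, 4 of 8 FACIT and 10 of 18 other genes rose. Among these, Col14a1, a FACIT, and Col23a1 turned direction without the day 10 replicate 1 sum (−7.07 and −0.054). The median log2 difference of the members was 3.99, against −0.34 over all genes tested.

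Among the fibrillar genes, Col1a1 (chr11:94936224-94953042, plus strand), the major chain of type I collagen, held 441, 819 and 1142 CPM in the 3 Fibroblast 2 sums against 2.46 to 64.3 CPM (median 33.1, n = 36) in SSC1-4, a log2 difference of 4.72 ± 0.31 (adjusted p = 9.04e-23), where ± after a log2 difference gives its standard error. Its partner chain Col1a2 held 496, 819 and 1344 CPM against 0 to 35.2 CPM (median 0.561, n = 36) (7.38 ± 0.90, adjusted p = 1.18e-10). Col3a1, the sole chain of type III, held 354, 679 and 1153 CPM against 0 to 20.2 CPM (median 0.124, n = 36) and had the largest log2 difference among the members, 8.68 ± 0.90 (adjusted p = 4.32e-13). In all of these the lowest Fibroblast 2 sum lay above the highest SSC1-4 sum. Col5a2, a chain of the type V collagen that nucleates fibrils, held 195, 386 and 493 CPM against 0 to 3.88 CPM (median 0.546, n = 36) (8.33 ± 0.63, adjusted p = 9.14e-19). Col5a1, the other main chain of type V, held 109, 324 and 398 CPM and rose by 4.24 ± 0.31 on the log2 scale, and Col11a1, a minor fibrillar chain known from cartilage, by 5.14 ± 0.48, both again without overlap. Lower levels were reached by Col5a3 (mean 54.6 CPM), Col27a1 (21.3 CPM) and Col24a1 (11.8 CPM), all called.

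Type IV and type VI genes rose beside the fibrillar ones. Col4a1 held 132, 604 and 663 CPM in Fibroblast 2 against 0 to 23.8 CPM (median 5.51, n = 36) in SSC1-4 (6.35 ± 0.44, adjusted p = 2.48e-21). Col4a2 held 149, 607 and 629 CPM against 0 to 18.4 CPM (median 3.62, n = 36) (6.66 ± 0.48, adjusted p = 4.69e-20). Both chains of the common type IV network therefore lay clear of every SSC1-4 sum. The other type IV chains were scarce: Col4a5 averaged 16.2 CPM with 66.4% of its UMIs in 1 cell, Col4a4 and Col4a6 had 7 and 10 UMIs, each in 1 cell without whose library the direction turned, and Col4a3 was the member that fell, with 3 UMIs in all. Its pooled level was 0.107 times that of SSC1-4, with a 95% counting interval of 0.0221 to 0.313.

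Type VI collagen is a trimer of Col6a1, Col6a2 and Col6a3 products. Col6a1 held 201, 567 and 595 CPM in Fibroblast 2 against 0 to 3.73 CPM (median 1.2, n = 36) in SSC1-4 (8.51 ± 0.51, adjusted p = 3.07e-24). Col6a2 held 109, 455 and 467 CPM (6.45 ± 0.42, adjusted p = 8.71e-24) and Col6a3 19.8, 309 and 423 CPM (7.78 ± 0.65, adjusted p = 2.75e-17). The low Col6a3 sum was that of day 27.

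Further called members gave Fibroblast 2 its breadth. Col12a1 and Col16a1, FACITs that bind to fibrils, averaged 109.7 ± 56.1 and 56.4 ± 3.38 CPM (log2 differences 5.94 ± 0.85 and 4.63 ± 0.54), without overlap with SSC1-4. Col8a1, a short-chain collagen of vessel walls, averaged 154 ± 22.1 CPM against 0.826 (7.57 ± 0.85), and Col15a1, of the basement membrane zone, 23.8 ± 11.5 against 0.122 (7.60 ± 0.97). Col28a1 averaged 43.2 ± 26.1 CPM, from 9 of 34 cells. Col18a1 had a smaller log2 difference, with 75.7, 390.2 and 424 CPM against 6.74 to 77.4 CPM (median 41.5, n = 36) (2.93 ± 0.26, adjusted p = 4.13e-17), and overlapped SSC1-4 in its lowest sum. Col13a1, a membrane-spanning collagen, was not called and held 0, 1.69 and 43.8 CPM. The lowest Col18a1 sum and the highest Col13a1 sum were those of day 27, with 6 cells, where germ cell markers were highest, at 1831 CPM against 290.3 and 647 CPM in the other 2 sums, and their part in the result was not tested. With the library as a block, possible in 2 libraries that held both classes, 13 of the 24 members it could test were called. Col4a1 (5.12, adjusted p = 0.134), Col16a1 (4.70, adjusted p = 0.0536) and Col18a1 (2.48, adjusted p = 0.101) were among those that lost their call. Leaving out 1 library at a time gave 25 to 31 called members. For the block and the other alternative fits, the share of all genes called is not given unless stated. Their counts therefore describe the members alone.

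**Figure D3:**
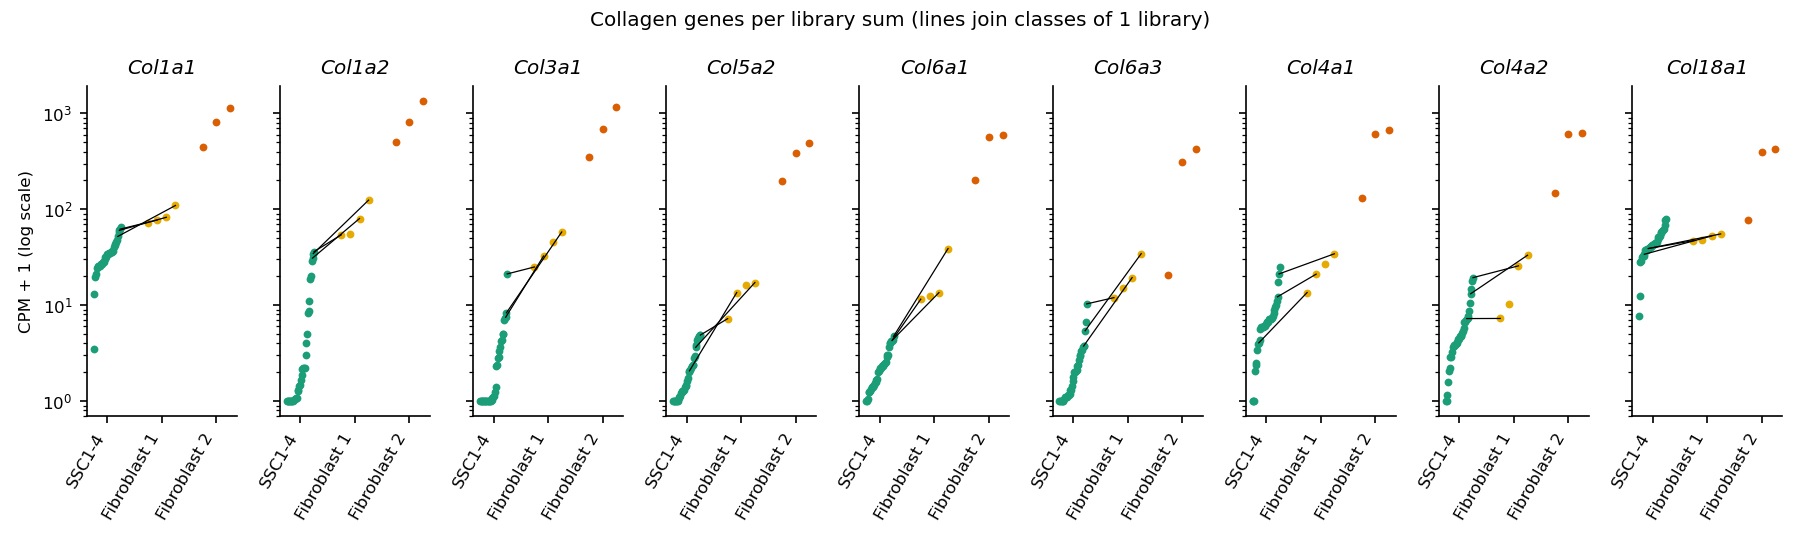
Level of 9 collagen genes in each library sum of SSC1-4, Fibroblast 1 and Fibroblast 2, as CPM + 1 on a log axis; lines join the SSC1-4 and Fibroblast 1 sums of the same library. For Col1a2, Fibroblast 1 lies at 53.2 to 124 CPM and Fibroblast 2 at 496 to 1344 CPM, and the SSC1-4 ends of the lines are among the higher SSC1-4 sums.

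Fibroblast 1 against SSC1-4 asked whether the cells of that cluster carry collagen transcripts beyond those of other SSCs. Here 8 of 43 members rose and 0 fell, where 0.789% of 20034 genes were called, 0.774% as higher and 0.0150% as lower. The 8 were the fibrillar genes Col1a1, Col1a2, Col3a1 and Col5a2, the others Col6a1, Col6a3 and Col8a1, and Col4a6, which rests on 14 UMIs with 85.7% of them in 1 cell. The median log2 difference of the members was 0.25, against −0.06 over all genes. Col3a1 held 24.0, 31.6, 44.6 and 57.0 CPM in the 4 sums, above the SSC1-4 maximum of 20.2 (4.32 ± 0.90, adjusted p = 0.00252). Col1a2 held 53.2, 54.2, 79.1 and 124 CPM, above the SSC1-4 maximum of 35.2 (3.71 ± 0.92, adjusted p = 0.0193). Col1a1 held 71.0, 76.4, 81.5 and 109 CPM, above an SSC1-4 maximum of 64.3 but with a smaller log2 difference of 1.33 ± 0.35 (adjusted p = 0.0384). The groups did not overlap in these 3, nor in Col5a2 (6.24, 12.6, 15.1 and 16.2 CPM), Col6a1 (10.6, 11.4, 12.5 and 38.0 CPM) and Col6a3 (11, 14.1, 18.4 and 33.5 CPM). The log2 differences of the last 3 were 3.34 ± 0.67 (adjusted p = 0.00125), 3.69 ± 0.53 (adjusted p = 2.49e-06) and 3.90 ± 0.66 (adjusted p = 7.85e-05) by edgeR. Col4a1 (23 against 6.25 CPM, 1.85 ± 0.50, adjusted p = 0.0536), Col4a2 (1.83 ± 0.56, adjusted p = 0.147) and Col12a1 (2.85 ± 0.90, adjusted p = 0.176) did not pass.

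The calls of Fibroblast 1 changed with the reference, the block and the tool. With the library as a block, in the 3 libraries that held both classes, 0 of 29 members tested were called, and against the SSC1-4 sums of days 8 to 14 alone 0 of 43 were called and 0 of all genes; at an unadjusted p under 0.05 there were 10 and 13 members. DESeq2, on all SSC1-4 sums, called 1, Col6a1. In place of 8 members, 4 were called without the day 10 replicate 1 sum, and 5 without that of day 14 replicate 4 or of day 8 replicate 1. Within the 3 libraries Col1a1 was 1.25, 1.38 and 2.12 times as high in Fibroblast 1 as in SSC1-4, Col1a2 1.51, 2.64 and 3.68 times, Col3a1 1.19, 4.87 and 7.77 times and Col6a1 3.22, 3.72 and 10.19 times, all above parity.

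The SSC1-4 sums themselves differed between libraries in these genes. Col1a2 in SSC1-4 was 17.8 to 35.2 CPM (median 31.8) in the 4 libraries with at least 5 cells of the fibroblast clusters, 0.867 to 27.6 CPM (median 13.4) in the 4 libraries with 1 to 4 such cells, and 0 to 9.97 CPM (median 0.178) in the 28 with none. Dcn, the fibroblast proteoglycan decorin, was 4.47 to 8.66 CPM (median 6.80), 0 to 9.63 CPM (median 5.20) and 0 to 6.13 CPM (median 0) in the same sums. Col1a1 overlapped more, at 12.1 to 61.1 CPM (median 55.2), 27.3 to 41.5 CPM (median 36.2) and 2.46 to 64.3 CPM (median 30.9). The part that the presence of fibroblast-cluster cells in a library has in these levels was not tested.

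Cell by cell, the collagen level nearly separated the clusters. Its median was 403 CPM per cell in Fibroblast 1 (69.0 to 1676) and 6228 CPM in Fibroblast 2 (1245 to 14816), with 7 cells of Fibroblast 1 above the lowest cell of Fibroblast 2 and 2 cells of Fibroblast 2 below the highest of Fibroblast 1. Of 182 Fibroblast 1 cells, 180 had Col1a1 UMIs (median 16.5), 177 had Col1a2 (median 13) and 168 had Col3a1 (median 7). The type I transcripts were thus found in nearly every cell, and 177 cells held Dazl, Ddx4 and Col1a2 together. Between the sums, 18 of 43 members were higher in Fibroblast 2 than in Fibroblast 1 and 0 lower, where 22.4% of 20034 genes were called, 12.7% as higher and 9.63% as lower. Among those called were Col5a2 (4.99 ± 1.35, adjusted p = 0.00411), Col4a2 (4.83 ± 1.04, adjusted p = 3.11e-04), Col6a2 (4.82 ± 0.89, adjusted p = 2.70e-05) and Col6a1 (4.81 ± 1.08, adjusted p = 5.16e-04) by edgeR. Col1a2 (3.67 ± 1.83, adjusted p = 0.137) and Col3a1 (4.36 ± 1.84, adjusted p = 0.0736) did not pass although their groups did not overlap.

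The pooled UMIs of the chains of a trimer were not in the same proportion in every class, which was not tested. Type I is usually assembled from Col1a1 and Col1a2 chains with more of the former. Col1a1 made up 47.1% of the UMIs of both in Fibroblast 2 (45.9% to 50.0% over 3 sums) and 54.5% in Fibroblast 1 (46.8% to 60.5% over 4 sums). In SSC1-4 it made up 88.1%, with a median of 98.2% over 36 sums, in RPG1 96.3%, in early-pluripotent cells 99.6%, in neural cells 68.3% and in RPG4 50.0%, the last from 7 UMIs of each gene. The lowest SSC1-4 sum was at 40.6%, below every fibroblast sum, so the classes overlapped. That sum, of day 27 replicate 5, had 10 cells with 28 Col1a1 and 41 Col1a2 UMIs, and its library held 6 Fibroblast 2 cells. The pooled SSC1-4 share thus mixes libraries that differed in Col1a2. The part of fibroblast-cluster cells in it was not tested. In 9 SSC1-4 sums no Col1a2 UMI was found while Col1a1 stood at 25.6 to 64.3 CPM (median 33.5).

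In type V the pooled shares had the same order, with Col5a1 at 94.1% of Col5a1 and Col5a2 in SSC1-4, 97.0% in RPG1, 73.3% in Fibroblast 1 and 43.5% in Fibroblast 2. For Col6a1 and Col6a2 of type VI the pooled shares had the other order, with Col6a1 at 23.9% in SSC1-4, 56.2% in Fibroblast 1 and 57.1% in Fibroblast 2. Col6a3 followed neither order, at 42.5%, 51.6% and 34.3% of Col6a3 and Col6a1 in the same classes. For type VIII Col8a1 was 30.3%, 88.8% and 90.9% of Col8a1 and Col8a2. Its median over the 36 SSC1-4 sums was 9.10%, below the pooled share. Col4a1, head to head with Col4a2, gave 55.5% of the pair in SSC1-4, 59.3% in Fibroblast 1, 50.4% in Fibroblast 2, 38.5% in RPG1 and 79.1% in RPG3, where it ran from 0% to 92.3% over 8 sums. These shares are descriptions of UMIs, whose capture can differ between genes, and not of protein.

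**Figure D4:**
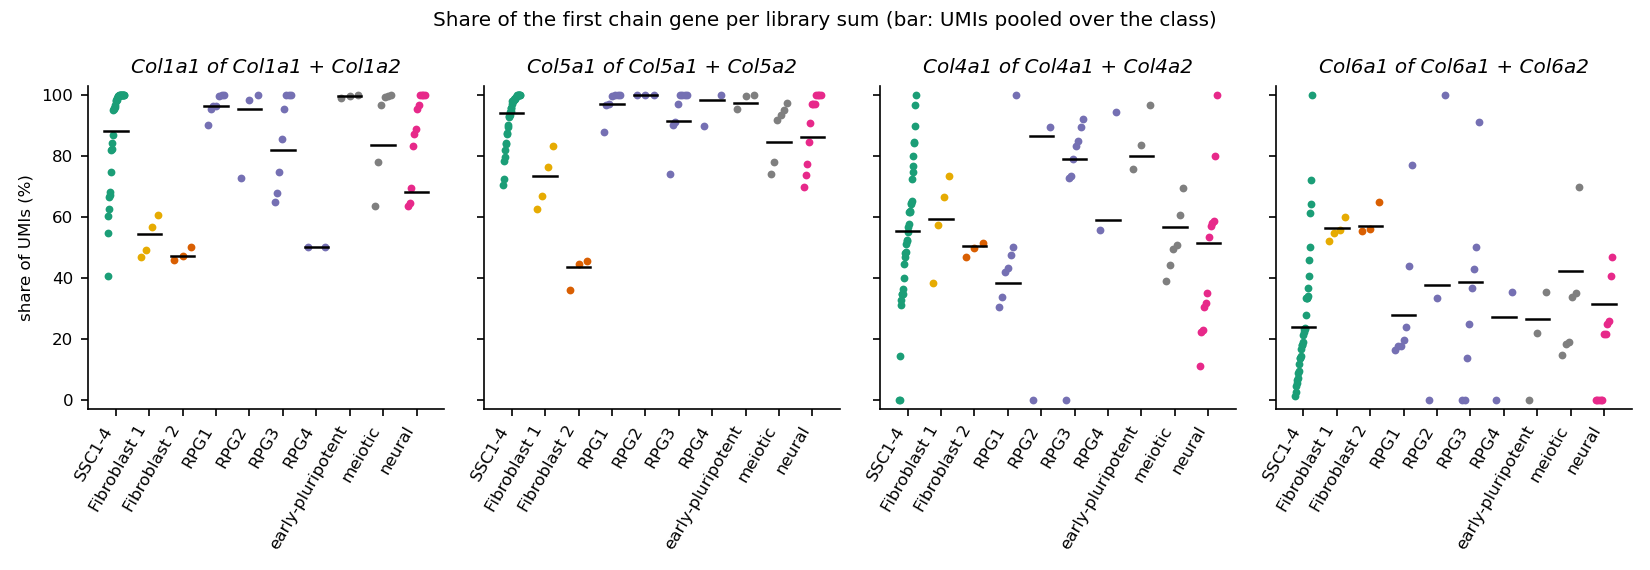
Share of the first chain gene in the UMIs of a pair of chain genes, in percent, for each library sum with any UMI of either gene (points) and pooled over the class (bars). For Col1a1 and Col1a2 the Fibroblast 1 and Fibroblast 2 sums lie between 45.9% and 60.5%, while the median SSC1-4 sum is at 98.2%; points at the ends of the scale can rest on few UMIs.

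Among the members that passed 10 CPM on average in SSC1-4 were Col18a1, Col1a1, Col13a1 and Col5a1. Col18a1 ran from 6.74 to 77.4 CPM (median 41.5, n = 36), Col1a1 from 2.46 to 64.3 CPM (median 33.1, n = 36), Col13a1 from 2.47 to 56.3 CPM (median 32.6, n = 36) and Col5a1 from 4.31 to 26.8 CPM (median 15.5, n = 36). Between the SSC clusters Col13a1 averaged 23.3 CPM in SSC1, 30.5 in SSC2, 46.1 in SSC3 and 53.0 in SSC4, and Col18a1 40.3, 34.3, 44.5 and 65.0 CPM, given without a test. Over days 0 to 27, 0 of 17 members that passed the filter changed with the day in SSC1-4 by edgeR (adjusted p under 0.05, batch in the fit), where 4.54% of 12337 genes were called. At an unadjusted p under 0.05 there were 2, Col18a1 (0.04 ± 0.02, adjusted p = 0.130, as log2 per day) and Col26a1 (0.10 ± 0.03, adjusted p = 0.0547), and DESeq2 called 3.

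In RPG2 and RPG3, clusters on the way to pluripotency, Col18a1 was the only member called higher than in SSC1-4. In RPG3, 1 member rose and 14 fell against SSC1-4, where 46.5% of 20034 genes were called, 19.3% as higher and 27.2% as lower. Col18a1 (chr10:77052178-77166548, minus strand) ran from 71.0 to 229 CPM (median 116, n = 8) in RPG3 against 6.74 to 77.4 CPM in SSC1-4 (1.51 ± 0.20, adjusted p = 3.70e-10), and the ranges overlapped. Col13a1 (chr10:61838236-61979108, minus strand) went the other way, at 1.82 to 10.4 CPM (median 4.26, n = 8) against 2.47 to 56.3 CPM (−2.51 ± 0.43, adjusted p = 4.06e-07). Col1a1 was at 1.72 to 14.4 CPM (median 6.19, n = 8) against 2.46 to 64.3 CPM (−2.29 ± 0.36, adjusted p = 1.11e-07). Both sets of ranges overlapped. Col5a1 fell by 1.65 ± 0.35 (adjusted p = 2.87e-05), Col4a2 by 1.73 ± 0.60 (adjusted p = 0.0120) and Col2a1 by 1.25 ± 0.55 (adjusted p = 0.0442), each on the log2 scale. Members already low in SSCs were also called, among them Col25a1, a neuronal membrane collagen (0.315 against 5.92 CPM), Col4a3 (0.257 against 5.32 CPM) and Col11a1 (0.660 against 5.80 CPM). Col28a1 had no UMI in RPG3, which put it at least 3.44-fold lower than in SSC1-4 (3 UMIs over the group as the floor). Germ cell markers summed to 169 to 545 CPM in RPG3 and fibroblast markers to 94.2 to 481 CPM, and their part in these differences was not tested. Most of the latter sum was Vim (71.1 to 441 CPM over the RPG3 sums), whereas the defining markers Dcn, Lum and Pdgfra averaged 0.179, 0.154 and 0.914 CPM, with Pdgfra at 8.27 to 11.4 CPM in the SSC clusters. With the library as a block, 3 of 15 members tested were called, Col13a1, Col1a1 and Col25a1, all lower, and Col18a1 lost its call (log2 difference 0.67).

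RPG2 showed the same direction for the same main genes at fewer cells. Col18a1 held 92.0, 131 and 166 CPM in the 3 sums, above every SSC1-4 sum (1.63 ± 0.29, adjusted p = 2.73e-06), and was the 1 member that rose, while 12 fell, where 31.6% of 20034 genes were called, 15.6% as higher and 16.1% as lower. Col13a1 held 1.66, 3.25 and 3.76 CPM (−3.40 ± 0.74, adjusted p = 1.2e-04), Col1a1 2.17, 2.76 and 12.2 CPM (−2.47 ± 0.59, adjusted p = 4.58e-04) and Col5a1 1.63, 1.69 and 8.56 CPM (−1.99 ± 0.57, adjusted p = 0.00363). Each of the other 9 rested on at most 8 UMIs in 44 cells, and Col24a1, with no UMI, was at least 5.08-fold lower than in SSC1-4. The block by library called 3 of 19, Col18a1, Col13a1 and Col5a1, and without the day 14 replicate 6 library 7 members were called. Germ cell markers summed to 243 to 371 CPM in RPG2, and the endoderm gene Gata6 was at 73.7 CPM in 1 sum, with a median of 0. Their part in these differences was not tested.

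In RPG1, whose germ cell markers summed to 1970 to 2343 CPM, 1 member differed from SSC1-4, where 3.36% of 20034 genes were called. Col5a1 ran from 23.8 to 68.1 CPM (median 32.2, n = 7) in RPG1 against 4.31 to 26.8 CPM (1.30 ± 0.28, adjusted p = 0.00143), and the block by library called 0 of 24 members, with 1 at an unadjusted p under 0.05. Col13a1 was at 28 to 56.4 CPM and Col18a1 at 41.4 to 87.8 CPM in RPG1.

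In RPG4, with 2 sums of 8 and 13 cells, 2 members rose and 6 fell against SSC1-4, where 25.5% of 20034 genes were called, 13.7% as higher and 11.8% as lower. Col1a1 was at 0.395 and 1.13 CPM, 7 UMIs in all and below every SSC1-4 sum (−5.11 ± 0.97, adjusted p = 1.84e-05). In place of 8 members, 3 were called without the day 20 replicate 1 sum and 4 without that of replicate 2. Col25a1 and Col5a3 had no UMI and were at least 16.5-fold and at least 6.13-fold lower. The members that rose rested on single cells, since 1 cell held 71.0% of the Col9a3 UMIs and 95.8% of the 24 Col4a4 UMIs. Col9a3, a type IX chain, held 1.51 and 48.5 CPM and was also the only member called between RPG4 and RPG3 (3.20 ± 1.03, adjusted p = 0.0365), where 7.70% of 20034 genes were called; without the day 20 replicate 1 library its direction turned. Col18a1 held 39.9 and 51.1 CPM in RPG4, below every RPG3 sum, but did not pass (−1.28 ± 0.49, adjusted p = 0.0945). Pluripotent markers summed to 648 and 804 CPM in RPG4, against 1499 to 2060 CPM in RPG3. Neural markers summed to 157 and 159 CPM, against 35.9 to 84.4 CPM in RPG3, and germ cell markers to 132 and 202 CPM in RPG4. The part of these in the collagen differences was not tested.

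The pluripotent lines had 1 library each and allow no test. Col18a1 was at 64.3 (59.9 to 68.9) CPM in gPSCs of passage 1, 143 (136 to 151) in passage 15 and 119 (113 to 125) in mESC, with exact Poisson 95% intervals that cover counting error only. Col13a1 was at 17.2 (14.9 to 19.7), 21.1 (18.4 to 24.0) and 10.5 (8.85 to 12.4) CPM in the same order. Col2a1, best known as the cartilage collagen, was at 8.30, 15.3 and 11.6 CPM. Of the 44 members, 29, 26 and 23 had no UMI, which at these depths allows each a level of up to 0.247, 0.283 and 0.222 CPM. Col18a1 and Col13a1 were thus above 10 CPM in every line, and 2, 4 and 3 members were.

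Early-pluripotent cells differed from SSC1-4 in 0 members by edgeR, where 0.779% of 20034 genes were called; 7 members had an unadjusted p under 0.05 and DESeq2 called 2. Col5a1 held 19.5, 33.9 and 42.6 CPM there (0.93 ± 0.41, adjusted p = 0.285) and Col13a1 29.9, 31.8 and 71.3 CPM (0.45 ± 0.51, adjusted p = 0.71), neither called by edgeR. In meiotic cells 1 member was called, where 1.30% of 20034 genes were, Col4a6 with 16 UMIs in 1 cell. Col1a1 held 40.7 to 79.7 CPM (median 60.3, n = 6) in meiotic sums (0.85 ± 0.31, adjusted p = 0.145), not called, and Col1a2 held 0, 0.119, 0.294, 2.75, 17.6 and 45.4 CPM in the same sums, all of day 16.

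In neural cells 9 members rose and 1 fell against SSC1-4, where 7.02% of 20034 genes were called, 4.49% as higher and 2.53% as lower, and the levels came largely from Neural 3. Col9a1, a chain of type IX, which coats the fibrils of cartilage and vitreous, held 247 and 303 CPM in the Neural 3 sums, both of day 27. Col26a1 held 282 and 348 CPM, Col2a1 237 and 256 CPM and Col3a1 447 and 539 CPM in those sums. In Neural 2 the highest sums of these genes were 8.17, 28.6, 19.4 and 20.0 CPM. The Neural 3 sums also held fibroblast markers at 929 to 1004 CPM, germ cell markers at 229 to 524 CPM, neural markers at 350.2 to 417 CPM and Sertoli cell markers at 268 to 385 CPM, the last led by Sox9 (311 CPM on average against 3.52 to 24.7 CPM in the SSC clusters), and the part of these in the collagen levels was not tested.

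Over all 12 neural sums the log2 differences were 7.10 ± 0.90 (adjusted p = 6.09e-08) for Col9a1, 3.77 ± 0.72 (adjusted p = 1.37e-04) for Col3a1 and 2.05 ± 0.44 (adjusted p = 5.73e-04) for Col26a1 by edgeR. Col4a2 rose by 1.62 ± 0.40 (adjusted p = 0.00428) and Col4a1 by 1.18 ± 0.37 (adjusted p = 0.0276) on the log2 scale, and Col8a2 fell by 2.22 ± 0.68 (adjusted p = 0.0254). Without the Neural 3 cells 4 members were called, Col9a1, Col7a1 and Col4a2 as higher and Col8a2 as lower, and the log2 difference of Col9a1 was 3.8. Under the block by library the direction of Col26a1 turned (−0.72). This block called 0 of 17, with 1 at an unadjusted p under 0.05.

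The comparison of 5C with DMSO asked whether collagens differ in cells treated with the 5 compounds, in tables that share 15426 genes and 32 of the members. The 5C samples were of days 12, 14 or 16 and the DMSO samples of day 20 or 24, with 8 cells of day 0 in DMSO replicate 5, so treatment and day cannot be told apart. In all cells 2 of 15 members tested were called, where 11.2% of 12997 genes were. Among the cells that the authors predicted to be SSC1-4, a class assigned from expression, 4 of 12 were called, where 16.3% of 12260 genes were, 8.69% as higher and 7.63% as lower.

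Col13a1 was the member that rose in 5C. In predicted SSC1-4 it ran from 17.1 to 69.4 CPM (median 52.0) in 8 samples of 5C against 5.66, 6.36 and 13.6 CPM in 3 samples of DMSO (2.55 ± 0.40, adjusted p = 3.12e-05), without overlap. In all cells it ran from 18.7 to 78.6 CPM (median 45.3) against 5.27, 5.62, 8.39, 11.9 and 12.5 CPM in 5 samples of DMSO (2.32 ± 0.41, adjusted p = 0.00257), again without overlap. The makeup of these samples differed, since 74 of 88 cells of DMSO replicate 1 and 66 of 90 of replicate 2 were predicted RPG3, a class in which they held 8.31 and 6.81 CPM of Col13a1, against 145 of 724 cells in the predicted RPG3 sums of 5C. The part of this in the all-cell differences was not tested. In the original condition, counted and normalized separately, SSC1-4 held 2.47 to 44.2 CPM (median 22.9) of Col13a1 on days 12 to 16 and 32.3 to 56.3 CPM (median 45.5) on days 20 to 23.

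Col4a1, Col4a2 and Col1a1 were lower in 5C in predicted SSC1-4, while Col1a2 did not pass the filter on low counts. Col4a1 in predicted SSC1-4 ran from 0 to 3.48 CPM (median 0.438) against 4.65, 17.3 and 32.8 CPM in DMSO (−4.47 ± 0.81, adjusted p = 1.93e-04). The highest of the 5C samples, replicate 1, had 12 UMIs, all in 1 cell of 36. Col4a2 ran from 0 to 2.84 CPM against 11.1, 13.9 and 16.1 CPM (−4.22 ± 0.89, adjusted p = 9.86e-04). Col1a1 ran from 4.74 to 17.9 CPM against 19.6, 36.7 and 46.7 CPM (−1.65 ± 0.38, adjusted p = 0.00215), and lost its call without DMSO replicate 4. In each of these the lowest DMSO sample stood above the highest 5C sample. SSC1-4 of the original condition held median levels of 5.06 and 5.01 CPM of Col4a1 and of 33.5 and 32.9 CPM of Col1a1 on days 12 to 16 and 20 to 23. Fibroblast markers in predicted SSC1-4 summed to 26.9 to 85.7 CPM in 5C and 24.7 to 44.7 CPM in DMSO, and germ cell markers to 2188 to 2804 and 2985 to 3276 CPM, and their part in the result was not tested.

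In all cells Col1a1 and Col4a2 were not called and Col4a1 was the other member called, at 0.161 to 4.83 CPM in 5C against 1.36, 2.48, 11.1, 19.4 and 28.2 CPM in DMSO (−2.54 ± 0.76, adjusted p = 0.0360), with overlap between the arms and the lowest DMSO values, 1.36 and 2.48 CPM, in the same replicates 2 and 1, and leaving out 1 sample at a time gave 1 to 4 called members. Predicted RPG1 (0 of 5 members, 4.98% of 9350 genes) and predicted RPG3 (0 of 7, 13.4% of 11390 genes) held no called member, with 0 and 1 at an unadjusted p under 0.05 by edgeR and 0 and 0 called by DESeq2. In predicted RPG3, Col18a1 ran from 73.2 to 211 CPM in 6 samples of 5C and held 91.2 and 143 CPM in 2 samples of DMSO (0.00 ± 0.35, adjusted p = 0.998).

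**Figure D5:**
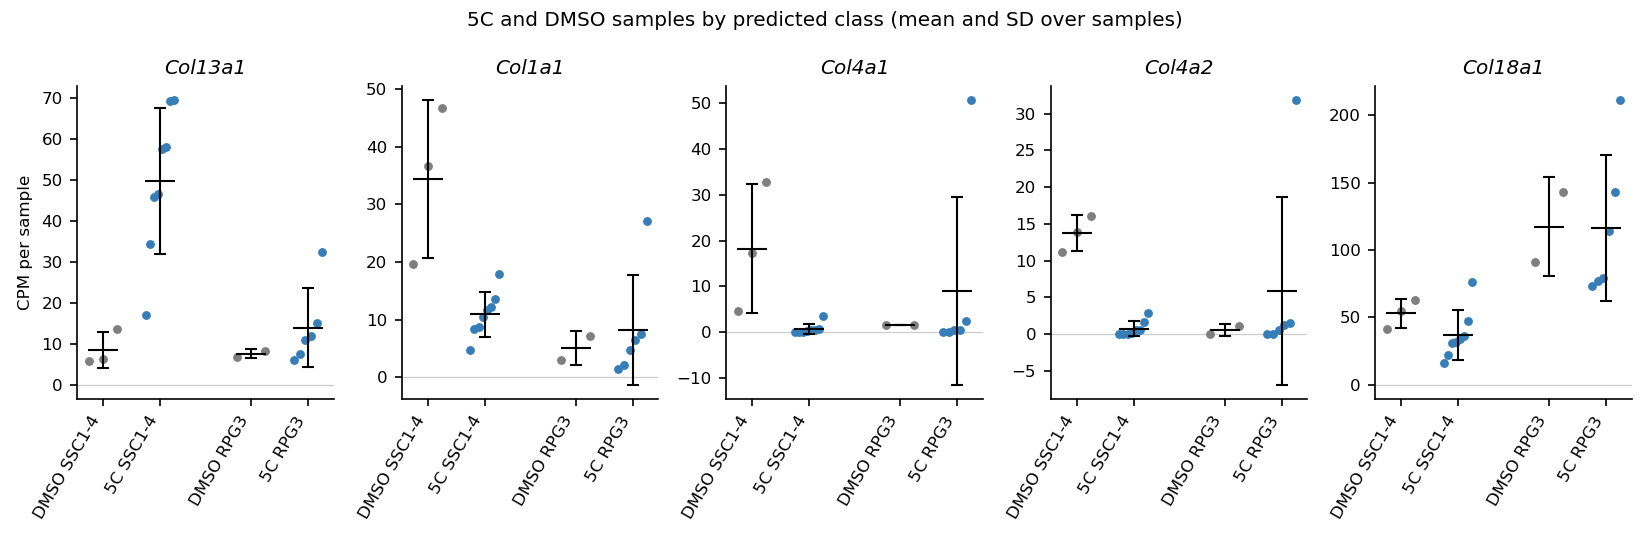
Level in CPM of 5 collagen genes in each 5C and DMSO sample of predicted SSC1-4 and predicted RPG3; points are samples, with mean and SD. In predicted SSC1-4 the 5C samples lie above the DMSO samples for Col13a1 (mean 49.7 ± 17.8 against 8.55 ± 4.40 CPM) and below them for Col1a1, Col4a1 and Col4a2, and the high Col4a1 point of 5C in predicted RPG3 is 1 sample of 7 cells.

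A model over both predicted classes tested whether the 5C difference was the same in RPG3 as in SSC1-4, and 1 of 18 members passed, where 9.06% of 13698 genes did. The DMSO sums of predicted RPG3 came from replicates 1 and 2 and those of predicted SSC1-4 from replicates 3, 4 and 5. In DMSO the classes therefore cannot be told apart from the samples. For Col4a2 the 5C minus DMSO difference was higher in RPG3 by 7.23 ± 2.35 (adjusted p = 0.0444) on the log2 scale. The highest value behind it was that of 5C replicate 3, with 31.8 CPM of Col4a2 and 50.5 CPM of Col4a1 in 7 cells, where 1 cell held 76.5% of the Col4a2 UMIs and 85.2% of the Col4a1 UMIs. The call was lost without DMSO replicate 1, 2, 4 or 5, each of which left 0 members called.

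Collagens need enzymes and chaperones to fold, then proteases and crosslinking enzymes, and receptors that bind them, and 5 lists of such genes were read beside the members. In Fibroblast 2, 16 of 20 folding genes, 14 of 18 processing and crosslinking genes, 6 of 9 receptors, 8 of 11 turnover genes and 8 of 15 basement membrane partners were higher than in SSC1-4, and 2 partners, the laminin genes Lama1 (−4.05) and Lama5 (−2.39), were lower. Of all genes, 19.4% were called higher and 13.6% lower. Median log2 differences of the 5 lists were 1.76, 4.64, 2.42, 5.46 and 1.5, against −0.34 over all genes. Serpinh1, the collagen chaperone HSP47, rose by 4.01, the crosslinking genes Loxl1 and Lox by 9.34 and 8.14, the fibril-binding Dcn by 9.11, the collagen receptor Ddr2 by 7.58 and the collagenase Mmp13 by 11.51 on the log2 scale.

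In Fibroblast 1, where 0.774% of all genes were called higher than in SSC1-4, the calls were in the processing and turnover lists. Of the folding genes 0 of 20 were higher, of the processing and crosslinking genes 2 of 18 (Dcn, 4.17, and Loxl1, 3.47), of the receptors 0 of 9, of the turnover genes 2 of 11 (Mmp13, 6.99, and Mmp2, 1.6) and of the basement membrane partners 0 of 15, with no gene lower. The median log2 difference of the folding genes was −0.05, against −0.06 over all genes. Against the SSC1-4 sums of days 8 to 14, with 0 calls over all genes, none of these list genes was called.

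In RPG3 the basement membrane partners were called in both directions, with 7 of 15 higher and 4 lower than in SSC1-4, beside 19.3% and 27.2% of all genes. Lamb3 (5.49), the perlecan gene Hspg2 (2.31) and Lama5 (2.18) rose, and Lama2 (−5.05) and Lama4 (−3.92) fell. Of the processing and crosslinking genes 6 of 18 were higher and 3 lower, with Pcolce, an enhancer of procollagen cleavage, at 3.67 and Lox at −3.91, and of the folding genes 2 of 20 were higher and 3 lower. In RPG4, 4 of 20 folding genes were higher, with Serpinh1 at 3.01, and 1 was lower, beside 13.7% and 11.8% of all genes. The receptor and turnover lists of RPG3 and the other lists of RPG4 are not given here.

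In predicted SSC1-4 of 5C, 3 of 16 folding genes, 3 of 7 turnover genes and 3 of 12 basement membrane partners were higher than in DMSO, and 1 and 1 of the last 2 lists were lower, beside 8.69% and 7.63% of all genes. The processing and crosslinking genes and the receptors are not given for this comparison. Serpinh1 was higher by 2.01, the inhibitor Timp1 by 3.74, Mmp9 by 2.47 and Mmp14 by 1.89. Nid1 (1.31), Nid2 (2.16) and Lamb2 (2.33), whose products join laminin to the type IV network or are laminin chains, rose, whereas Lamb1 (−1.67) fell in the direction of Col4a1 and Col4a2.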

How the data were processed

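RNA of single mouse cells was measured by modified STRT-seq in the original condition and the pluripotent lines, and by scTrio-seq2 in the 5C and DMSO samples. The values used are UMI counts per gene and cell deposited by the authors, who trimmed and aligned reads to mm10 with STAR 2.7.2b, counted genes with featureCounts 2.0.0, per the submitters' processing notes, and removed cells with few genes or a high mitochondrial share. Counts were summed per library (or sample) and cell class with at least 5 cells, and all classes were fitted together with edgeR 4.0.16 (TMM, filterByExpr, robust quasi-likelihood test), in R 4.3.3. DESeq2 1.42.0 was an alternative. Calls needed a Benjamini-Hochberg adjusted p under 0.05 over all genes tested and a natural-log fold of at least 0.5. The fit over days used adjusted p alone, with batch as a covariate. CPM uses TMM library sizes. The tests were also run on simulated counts, drawn independently for each sum with 1 fixed spread. That setting holds no pairing by library, no batch and no values set by single cells, so it does not cover these. Figures were drawn in Python 3.11.15 with matplotlib 3.10.9.

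The members and gene lists were chosen with earlier results of these data known. Genes are named by a rule: the members the study names (Col12a1, Col5a2), members with a class mean of at least 10 CPM, at most the 8 called members with the largest log2 difference per comparison, chains of the same trimer, at most 3 called genes of each pathway list per direction, and fixed defining markers. Members called under an alternative alone were counted and not named.

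Replicate numbers did not pair 5C with DMSO samples: correlations of their deviations for the 5 shared numbers were 0.32, −0.48, 0.23, 0.38 and −0.49. Classes of the same library form a pair, and their deviations correlated at 0.01 to 0.18 where 3 or more libraries held both classes, so a fit with the library as a block was an alternative. Alternatives also changed the filter, the cell minimum, the batch term, the tool and the libraries included.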

Additional observations from a re-analysis of the deposited data

Results flagged for a closer look

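Groups of 4 to 10 samples were checked for a sample far from the others. The groups share genes and samples and some hold few UMIs, so no rate expected by chance is given. Of 93 groups, 18 held such a sample. The day 14 replicate 4 sum of Fibroblast 1, with 24 cells, was such a sample in 5 of them. Its level of all members was 692 CPM against 427 to 472 CPM in the other 3 sums, and its level of the other collagens was 236 against 126 to 145 CPM. Col6a1 stood there at 38.0 against 10.6 to 12.5 CPM, Col6a2 at 25.5 against 9.09 to 10.4 CPM and Col8a1 at 21 against 5.76 to 6.36 CPM. In other Fibroblast 1 sums, Col4a6 was at 1.36 CPM in day 10 replicate 1 (others at most 0.0535), Col24a1 at 2.41 CPM in day 8 replicate 1 (others 0 to 0.192) and Col27a1 at 1.73 CPM in day 14 replicate 2 (others 0.386 to 0.481).

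In RPG3, Col18a1 reached 229 CPM in day 12 replicate 2 against 71.0 to 133 CPM in the other 7 sums, and with it the level of the other collagens 238 against 107 to 167 CPM. Col9a3 was at 10.5 CPM in day 20 replicate 1 (others 0 to 3.91), and Col4a3 and Col6a5 were at 1.34 and 0.479 CPM in day 23 replicate 1 (others 0 to 0.404 and 0 to 0.142). In meiotic sums Col4a6 was at 0.745 CPM in day 16 replicate 3 and 0 in the other 5.

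In the 5C samples, the FACIT level of predicted SSC1-4 was 26 CPM in replicate 6 against 2.54 to 10.4 CPM, and Col4a1 was at 3.48 CPM in replicate 1 against 0 to 0.804 CPM. The type IV level was 2.59 CPM in replicate 6 of predicted RPG1, with the other 3 samples at 0, and 82.4 CPM in replicate 3 of predicted RPG3 against 0 to 2.97 CPM. The 5C difference of Col4a2 between predicted RPG3 and predicted SSC1-4, 7.23 on the log2 scale, passed the test of the difference itself (edgeR, adjusted p = 0.0444).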

How the results depend on the processing

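Of 846 values of called members under the alternatives, 652 kept direction and call, 187 kept direction or fell to no difference without a call, and 7 reversed. The reversed ones were, without the day 10 replicate 1 sum of Fibroblast 2, Col14a1 (−7.07), Col23a1 (−0.054) and Col4a4 (−3.85), without its day 8 replicate 1 sum Col4a6 (−0.28), without the day 20 replicate 1 sum of RPG4 Col9a3 against SSC1-4 (−0.90) and RPG3 (−0.93), and under the library block Col26a1 in neural cells (−0.72). The causes were not tested. With the library as replicate block, called members numbered 0 for Fibroblast 1, 13 for Fibroblast 2, 0 for RPG1, 3 for RPG2, 3 for RPG3, 0 for meiotic and 0 for neural cells against SSC1-4, 0 for RPG4 against RPG3 and 21 for Fibroblast 2 against Fibroblast 1; the block uses fewer sums and tests fewer members. No paired analysis was possible because no library held both RPG4 and SSC1-4, and predicted RPG1 and RPG3 shared fewer than 2 replicate numbers between 5C and DMSO. With the replicate number as replicate block, 0 members were called in all cells, 3 in predicted SSC1-4 and 0 for the difference between classes, and 0 of the DMSO samples correlated best with its own number. DESeq2 called 1 member for Fibroblast 1, 2 for early-pluripotent cells, 0 for meiotic cells, 4 for RPG4 against RPG3, 3 over days and 2 for the difference between classes; its scaling moved the median of all genes by 0.29 for Fibroblast 2 and 0.13 for RPG4 against SSC1-4 (log2). A minimum of 10 cells gave 3 members for RPG1, 5 for neural cells and 1 for 5C in predicted RPG1, and left too few sums of Fibroblast 2 and RPG4. With batch as a covariate RPG4 against RPG3 gave 0; over days, batch B1 alone gave 1 and leaving out day 0 gave 1. Chosen after seeing the data, SSC1-4 sums of days 8 to 14 as the reference gave 0 for Fibroblast 1, and neural sums without Neural 3 gave 4. Leaving out 1 library or sample at a time gave 4 to 7 members for Fibroblast 1, 25 to 31 for Fibroblast 2, 7 to 10 for RPG2 and 3 to 4 for RPG4 against SSC1-4, 12 to 18 for Fibroblast 2 against Fibroblast 1, and for 5C 1 to 4 in all cells (1 without DMSO replicate 3, 4 or 5, 4 without replicate 2), 3 to 4 in predicted SSC1-4, 0 to 1 in predicted RPG1 and 0 to 1 for the difference between classes; where 1 sum of a class was left, its spread was taken to be that of the other classes. Plain library totals moved the summed level to 148 CPM in RPG4, 94.3 in gPSC passage 1 and 150.1 in mESC. Depth limits the members with few UMIs, for which single cells set the values.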
